A study of Mus musculus with 18 samples.

Results

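The 10 genes described here encode the cyclin D to Rb switch that lets a dividing cell leave G1: the D cyclins Ccnd1, Ccnd2 and Ccnd3, their partner kinases Cdk4 and Cdk6, the CDK inhibitors Cdkn1a (p21), Cdkn1b (p27), Cdkn2c (p18) and Cdkn2d (p19), and the retinoblastoma gene Rb1. They were taken by symbol as named members of the pathway, not by a threshold on a measured value, though with earlier results of these data known. All 10 were found among the 47729 genes of the count files and passed the filter on low counts. The tissue was whole embryonic mouse cortex at E15.5 from BAF155 cKO animals, a conditional knockout of BAF155, the Smarcc1 product and a scaffold subunit of BAF chromatin remodellers. One group received TSA (trichostatin A, an inhibitor of histone deacetylases) and the other Vehicle, so every sample on both sides carried the same knockout and samples without it were not analysed here. RNA came from 4 TSA and 4 Vehicle samples, and chromatin precipitated for histone H3 acetylated at lysine 9 (H3K9ac, a mark of active promoters and enhancers) from another 4 TSA and 4 Vehicle samples. The labels give neither the dose of TSA nor the Cre driver, and do not tie samples to animals. The p-values cover the spread between these samples, which may be technical.

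D cyclins bind CDK4 and CDK6, and the active kinases phosphorylate Rb, which then releases E2F transcription factors to switch on genes of DNA replication. The INK4 inhibitors, among them p18 and p19, bind the kinases directly, while the CIP/KIP inhibitors p21 and p27 bind cyclin and kinase together and also restrain CDK2. In the embryonic cortex Ccnd1 and Ccnd2 are known for expression in radial glia, where the length of G1 bears on whether a progenitor divides again or makes neurons, and p27 is known for accumulating as cells leave the cycle. Cdkn1a is the textbook target of deacetylase inhibitors, first described in cultured cell lines.

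Levels below are CPM, read counts set relative to the TMM-scaled size of the library, and TSA was set against Vehicle with edgeR's quasi-likelihood test, with Benjamini-Hochberg adjustment over 15000 tested genes and a threshold of 0.05. Of the 10 genes, 2 rose (Cdk6 and Ccnd3), 3 fell (Cdk4, Cdkn1b and Cdkn2d) and 5 did not pass. Across all tested genes 15.4% rose and 17.6% fell, 33.0% in all, and a set of 10 genes is too small for its 5 calls to stand apart from that background. The 5 called genes were also those whose TSA and Vehicle libraries did not overlap, an arrangement that held with TSA higher for 14.9% of all tested genes and with TSA lower for 17.4%. The kinase genes moved in opposite directions, and of the inhibitors none rose. In bulk tissue, fewer cells of a type and less RNA per cell cannot be told apart.

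**Figure D1:**
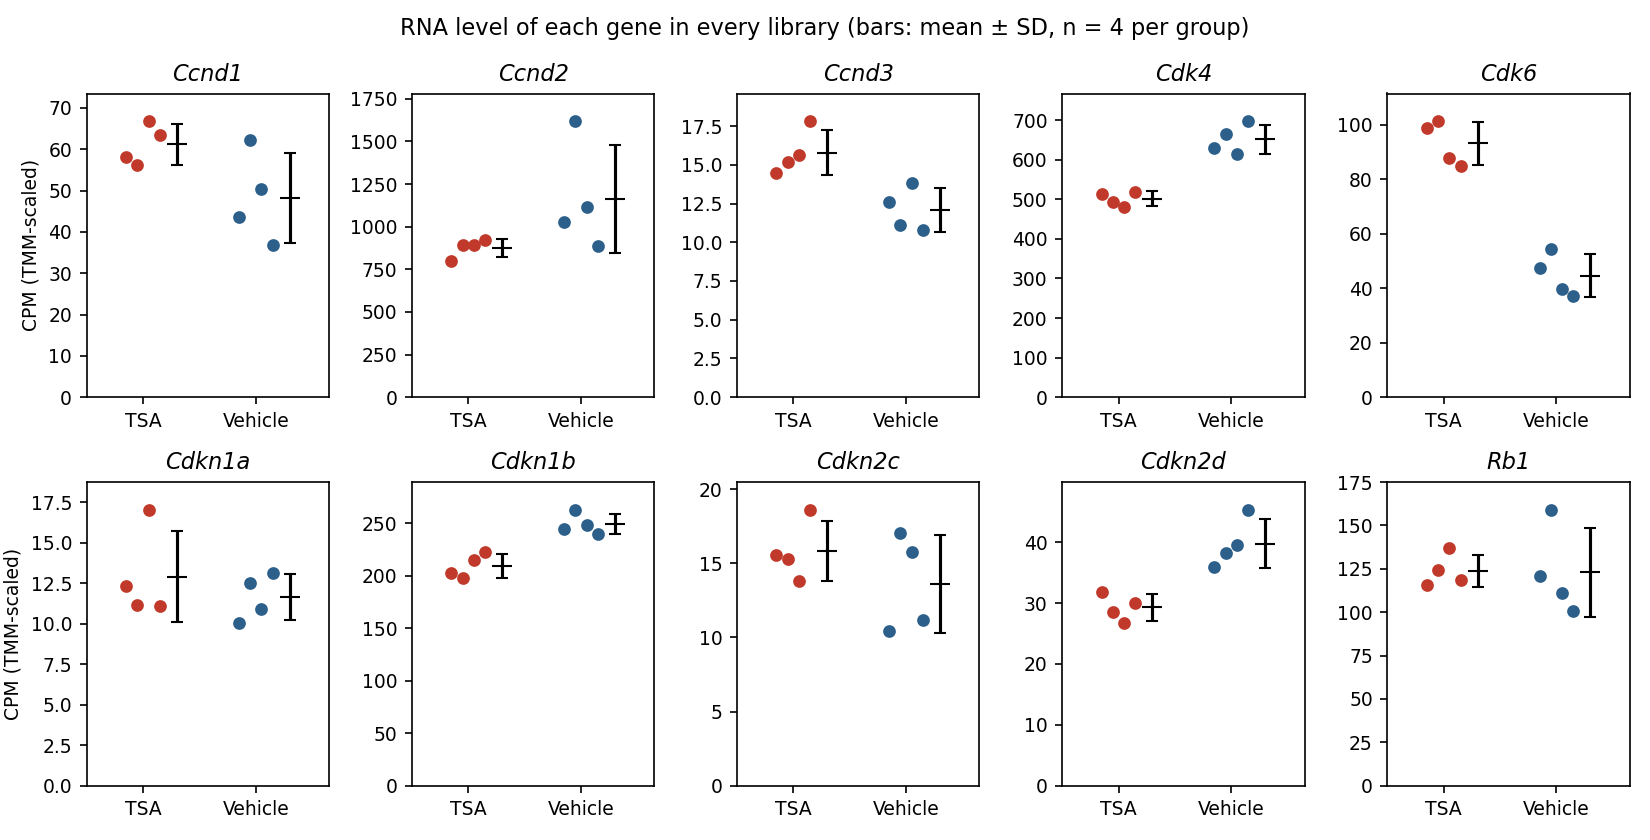
CPM (vertical axes, starting at 0) of each of the 10 genes in every library, with the 4 TSA libraries left of the 4 Vehicle libraries and the mean ± SD beside each group. Cdk6 lay between 85.0 and 101 CPM in TSA libraries, above the 37.0 to 54.3 CPM of Vehicle libraries, while Cdk4 lay below its Vehicle range and Cdkn1a overlapped it.

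Some facts of the libraries touch every result below. RNA totals were 6733415 to 20400727 counts in TSA libraries, with TSA 1 the shallowest, and 12200426 to 15600340 counts in Vehicle libraries. Xist, the RNA that coats the inactive X chromosome of females, had 0.30, 1.47 and 0.49 CPM in TSA 1 to 3 but 2327 CPM in TSA 4, against 1768 to 3118 CPM in the 4 Vehicle libraries. Xist status and treatment therefore nearly coincide, and only TSA 4 bears on the treatment at equal Xist status. Mitochondrial genes took 1.48 to 1.71% of counts in TSA libraries and 1.60 to 3.36% in Vehicle libraries, highest in Vehicle 1 and Vehicle 4. All 8 listed ganglionic eminence and inhibitory neuron markers fell (summed level 403 to 623 CPM in TSA, 953 to 1135 CPM in Vehicle), and 7 of 8 cortex identity markers rose (2324 to 2758 CPM in TSA, 1322 to 1975 CPM in Vehicle). Of 8 basal progenitor markers 3 rose and 0 fell, with sums of 884 to 1028 CPM in TSA and 537 to 747 CPM in Vehicle. Of 8 apical progenitor markers 4 rose and 2 fell, with a median log2 fold change of 0.15, although their sum was 1732 to 1785 CPM in TSA and 1813 to 2161 CPM in Vehicle. Of 8 markers each, 5 fell and 0 rose among striatal neurons, 4 fell and 0 rose among microglia and macrophages, 3 fell and 0 rose among erythroid cells, 2 fell and 0 rose among endothelial cells and pericytes, and 3 rose and 1 fell among postmitotic neurons. Of the meninges and choroid plexus markers 5 were tested, of which 1 rose and 1 fell. No listed marker was at 0 in every library, and the part of tissue makeup in the results below was not tested.

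Cdk6, the partner kinase known in the developing brain for its role in progenitor proliferation, showed the largest change of the 10 genes. It had 98.6, 101, 87.8 and 85.0 CPM in TSA 1 to 4, against 47.5, 54.3, 39.5 and 37.0 CPM in Vehicle 1 to 4. Every TSA library lay above every Vehicle library, and TSA 4, which shares high Xist with the Vehicle libraries, was the lowest of the TSA libraries and still above all of them. The mean was 93.2 ± 7.99 CPM in TSA and 44.6 ± 7.88 CPM in Vehicle (SD, n = 4 each), a ratio of 2.09 and a log2 fold change of 1.06 ± 0.12 (SE, 95% interval 0.81 to 1.31, edgeR adjusted p = 4.53e-05). Called rises at least this large made up 0.973% of the tested genes. Cdk6 kept its call under all 19 other settings, with log2 fold changes of 0.93 to 1.17, among them the fit with Xist status as a covariate (0.93, edgeR adjusted p = 0.0104) and the fit on the libraries with Xist counts alone, TSA 4 against the 4 Vehicle libraries (0.93, edgeR adjusted p = 0.0352). The last rests on 1 TSA library, whose spread is taken from the Vehicle libraries. The libraries were not stranded, and Gm29868 lies wholly within the span of Cdk6 while Gm36470 overlaps its start. Exons were not compared, and the counting tool was not named, so how reads there were assigned is not known.

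Cdk4, the other partner kinase and the more general one in dividing tissue, fell. Its level was 515, 493, 481 and 520 CPM in TSA 1 to 4, against 631, 665, 616 and 698 CPM in Vehicle 1 to 4. The groups did not overlap, and the spread within TSA was narrow at 502 ± 18.4 CPM, against 652 ± 36.7 CPM in Vehicle (SD, n = 4 each), with a log2 fold change of −0.38 ± 0.09 (SE, 95% interval −0.57 to −0.19, edgeR adjusted p = 0.00519). The ratio of Cdk6 to Cdk4 CPM within a library was 0.164 to 0.206 in TSA and 0.0531 to 0.0817 in Vehicle. With Cdk6 higher and Cdk4 lower in every TSA library, these ranges had to lie apart and add no separate evidence. Since the ratio takes no account of transcript length, only its shift between libraries can be read, not which kinase had more transcripts. The fall of Cdk4 no longer passed with Xist status as a covariate (log2 fold change −0.33, edgeR adjusted p = 0.196), on the libraries with Xist counts (−0.33, edgeR adjusted p = 0.437) or with the trend over genomic span removed (−0.20, limma adjusted p = 0.105).

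The promoters of both kinases are shown because their RNA moved in opposite directions and because both carry H3K9ac. They are RefSeq sequences on GRCm38.p6 (mm10), from 250 bases before to 50 bases after the start, read 5′ to 3′ on the gene's strand, which is the forward strand for both. Cdk4 lies on chr10:127063285-127063584 and Cdk6 on chr5:3343643-3343942, and capitals mark matches on either strand. The motifs searched were the GC box, spelled GGGCGG, the E-box of Myc factors, spelled CACGTG, the box named for its letters CCAAT, runs like TATAA, and the p53 half-site.
Cdk4: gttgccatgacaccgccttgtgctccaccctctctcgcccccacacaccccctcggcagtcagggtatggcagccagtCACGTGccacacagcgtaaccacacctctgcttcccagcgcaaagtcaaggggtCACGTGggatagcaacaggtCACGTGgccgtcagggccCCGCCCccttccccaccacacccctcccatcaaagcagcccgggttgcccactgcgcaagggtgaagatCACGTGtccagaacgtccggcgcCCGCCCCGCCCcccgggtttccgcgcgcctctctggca
Cdk6: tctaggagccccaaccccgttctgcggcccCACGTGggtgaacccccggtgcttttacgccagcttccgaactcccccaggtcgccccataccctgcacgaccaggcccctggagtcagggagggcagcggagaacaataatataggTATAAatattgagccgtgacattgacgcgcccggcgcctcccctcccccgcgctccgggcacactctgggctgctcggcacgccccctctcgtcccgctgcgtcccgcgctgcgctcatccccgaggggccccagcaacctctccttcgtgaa
Positions count from 0 at the annotated start. Cdk4 holds 4 E-boxes, beginning at −172, −118, −98 and −11, and 3 GC boxes, at −80, 12 and 17, of which the last and the one before it overlap in the run of capitals. Cdk6 holds 1 E-box at −220, 1 TATA-like run at −103 and none of the other motifs searched. Of 32851 RefSeq promoters of the same length, 7.15% hold an E-box and 8 promoters (0.0244%) hold 4 or more, while 35.7% hold a GC box, 37.4% a CCAAT box and 24.9% a TATA-like run. Both promoters are rich in GC, at 67.0% for Cdk4 and 66.67% for Cdk6, against a median of 52.67% over all promoters. A match of letters is a description and does not show a bound site.

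**Figure D2:**
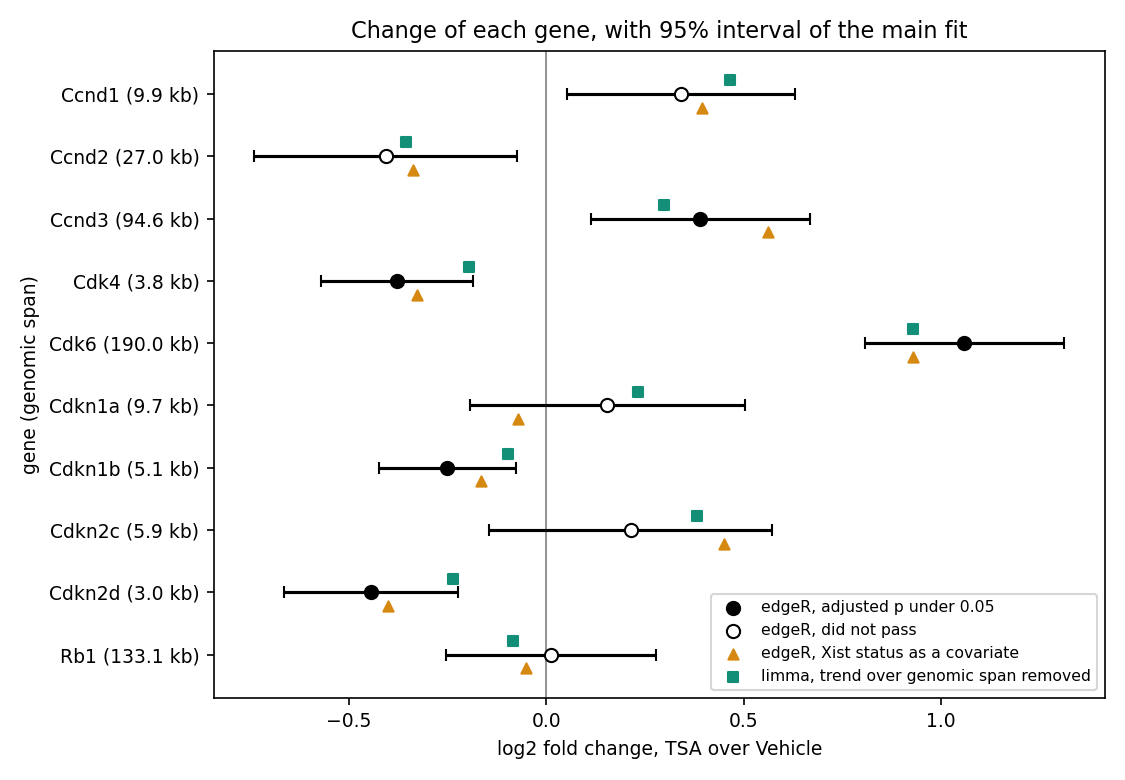
Log2 fold change, TSA over Vehicle (horizontal axis), of each gene, with its genomic span on the vertical axis. Circles are the edgeR values with 95% intervals, filled where the adjusted p was under 0.05. Triangles give the fit with Xist status as a covariate, and squares the limma fit after a library's trend along genomic span was taken out. Cdk6 stands apart from the other genes, at 1.06 in the main fit and 0.93 in each of the other fits.

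Among the D cyclins, which carry mitogen signals to the kinases, the 3 genes differed. Ccnd3 rose, with 14.5, 15.2, 15.6 and 17.8 CPM in TSA 1 to 4, against 12.6, 11.1, 13.8 and 10.8 CPM in Vehicle 1 to 4. The highest Vehicle library lay just below the lowest TSA library, which is also the shallowest one, with 95 reads of this gene. Its mean was 15.8 ± 1.44 CPM in TSA and 12.1 ± 1.42 CPM in Vehicle (SD, n = 4 each), and its log2 fold change 0.39 ± 0.13 (SE, 95% interval 0.11 to 0.67, edgeR adjusted p = 0.0319). The call was lost when TSA 2 (adjusted p = 0.0612), TSA 3 (0.0573), TSA 4 (0.112), Vehicle 2 (0.0591) or Vehicle 4 (0.0906) was left out and edgeR was run again, while the log2 fold change stayed between 0.33 and 0.46 over the 8 such fits. Ccnd3 shares 359 bases with Bysl at its end and spans the whole of Gm41590.

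Ccnd2, the D cyclin whose mRNA is known to be carried to the basal endfeet of radial glia, had 801, 893, 893 and 919 CPM in TSA 1 to 4, against 1030, 1619, 1113 and 887 CPM in Vehicle 1 to 4. Vehicle 2 was far above every other library, and Vehicle 4 lay within the TSA range. The mean was 876 ± 52.1 CPM in TSA and 1162 ± 319 CPM in Vehicle (SD, n = 4 each), and the log2 fold change of −0.41 ± 0.16 did not pass (SE, 95% interval −0.74 to −0.07, edgeR adjusted p = 0.0574). Without Vehicle 2 the log2 fold change was −0.20 (edgeR adjusted p = 0.161), and with Vehicle 1 or Vehicle 4 left out instead it passed (edgeR adjusted p = 0.048 and 0.0182). Leaving out both Vehicle libraries rich in mitochondrial counts gave −0.64 (edgeR adjusted p = 0.00409).

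Ccnd1, the founding D cyclin, had 58.2, 56.1, 66.8 and 63.5 CPM in TSA 1 to 4, against 43.7, 62.2, 50.4 and 36.7 CPM in Vehicle 1 to 4. Here too Vehicle 2 stood high and reached into the TSA range, while the other 3 Vehicle libraries lay below all TSA libraries. The mean was 61.2 ± 4.87 CPM in TSA and 48.2 ± 10.9 CPM in Vehicle (SD, n = 4 each), and the log2 fold change of 0.34 ± 0.13 did not pass (SE, 95% interval 0.05 to 0.63, edgeR adjusted p = 0.0653). Without Vehicle 2 it was 0.49 and passed (edgeR adjusted p = 0.00239), and without both Vehicle libraries rich in mitochondrial counts it was 0.12 (edgeR adjusted p = 0.436).

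Vehicle 2 raised Ccnd1 and Ccnd2 together, so among the Vehicle libraries their ratio within a library was steadier than either level. Ccnd2 over Ccnd1 CPM was 13.7, 15.9, 13.4 and 14.5 in TSA 1 to 4, against 23.6, 26.03, 22.1 and 24.1 in Vehicle 1 to 4. The ranges lay apart, with a mean of 14.4 ± 1.12 in TSA and 23.96 ± 1.64 in Vehicle (SD, n = 4 each), although neither gene alone passed in the fit over all genes. No test was made on this ratio, which was formed after the levels were known. The ratios of Ccnd2 to Ccnd3 and of Cdkn2c to Cdkn2d also lay apart, while that of Cdkn1b to Cdkn1a overlapped. Ccnd3 and Cdkn2d did not overlap between the groups on their own, so their ratios in part repeat those calls. How often the ratios of other gene pairs lie apart was not counted. After removal of each group's mean, log2 CPM of Ccnd1 and Ccnd2 correlated over the 8 libraries at r = 0.92, Ccnd2 and Rb1 at r = 0.91 and Ccnd1 and Rb1 at r = 0.85. These are descriptions over 8 libraries that share their totals, and Vehicle 2 and Vehicle 4 are the extremes of all 3 genes.

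Cdkn1a, which encodes p21, a broad CDK inhibitor and target of p53, did not pass. It had 12.3, 11.1, 17.04 and 11.1 CPM in TSA 1 to 4, against 10.04, 12.5, 10.9 and 13.1 CPM in Vehicle 1 to 4. TSA 3 was the highest library, while the other 3 TSA libraries lay within the Vehicle range. The mean was 12.9 ± 2.82 CPM in TSA and 11.6 ± 1.43 CPM in Vehicle (SD, n = 4 each), and the log2 fold change 0.15 ± 0.16 (SE, 95% interval −0.19 to 0.50, edgeR adjusted p = 0.514). The upper end of that interval bounds a rise at a log2 change of 0.50, so a doubling lies outside it. Reads numbered 81 to 345 per library. Without TSA 3 the log2 fold change was −0.02 (edgeR adjusted p = 0.938).

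Cdkn1a has 2 annotated starts, and both promoters are shown because the acetylation described further on differs between them. Start 1 lies on chr17:29090729-29091028 and start 2 on chr17:29093519-29093818, forward strand, RefSeq GRCm38.p6, with capitals as above.
Cdkn1a start 1: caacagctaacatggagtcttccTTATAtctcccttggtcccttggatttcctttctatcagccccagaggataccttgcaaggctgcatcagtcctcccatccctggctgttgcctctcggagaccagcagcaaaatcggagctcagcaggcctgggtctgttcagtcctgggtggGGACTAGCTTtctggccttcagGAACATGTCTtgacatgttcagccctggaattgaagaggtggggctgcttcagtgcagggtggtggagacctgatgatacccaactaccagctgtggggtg
Cdkn1a start 2: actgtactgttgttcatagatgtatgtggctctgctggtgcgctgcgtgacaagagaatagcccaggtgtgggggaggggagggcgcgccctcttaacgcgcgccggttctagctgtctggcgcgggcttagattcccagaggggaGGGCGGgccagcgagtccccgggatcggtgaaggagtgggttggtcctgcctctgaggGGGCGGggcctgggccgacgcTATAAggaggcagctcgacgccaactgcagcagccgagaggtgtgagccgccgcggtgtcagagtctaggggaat
Start 1 holds 2 matches to the p53 half-site, GGACTAGCTT at −73 and GAACATGTCT at −51, 1 TATA-like run at −227 and no GC box, and it has 2 CG dinucleotides. Start 2 holds 2 GC boxes, at −104 and −46, 1 TATA-like run at −25 and no p53 half-site, and it has 23 CG dinucleotides. Over all 32851 promoters 8.36% hold a p53 half-site, and the median number of CG dinucleotides is 7.

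The other CIP/KIP gene of the set, Cdkn1b, encodes p27, the inhibitor known for cell cycle exit in cortical progenitors. It fell, with 202, 198, 215 and 222 CPM in TSA 1 to 4, against 245, 263, 249 and 240 CPM in Vehicle 1 to 4. The groups did not overlap but lay close, at 209 ± 11.2 CPM in TSA and 249 ± 9.84 CPM in Vehicle (SD, n = 4 each), with a log2 fold change of −0.25 ± 0.08 (SE, 95% interval −0.42 to −0.08, edgeR adjusted p = 0.0278). Repeats of the edgeR fit without TSA 1 (adjusted p = 0.101), TSA 2 (0.126), TSA 3 (0.0523) or Vehicle 3 (0.0533) lost the call. So did the edgeR fit with sequencing lane as a covariate (adjusted p = 0.0511).

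Of the INK4 genes, Cdkn2d (p19), known for rising in neurons after mitosis, fell. Its level was 31.9, 28.6, 26.7 and 30.1 CPM in TSA 1 to 4, against 36.0, 38.2, 39.5 and 45.4 CPM in Vehicle 1 to 4. All TSA libraries lay below all Vehicle libraries, at 29.3 ± 2.19 CPM in TSA and 39.7 ± 4.01 CPM in Vehicle (SD, n = 4 each), with a log2 fold change of −0.44 ± 0.10 (SE, 95% interval −0.66 to −0.22, edgeR adjusted p = 0.00434), and no single library, left out, ended the call. Cdkn2c (p18), the INK4 inhibitor known for expression in dividing neural progenitors, had 15.55, 15.3, 13.8 and 18.6 CPM in TSA 1 to 4, against 10.5, 17.1, 15.8 and 11.2 CPM in Vehicle 1 to 4. Vehicle 1 and Vehicle 4 lay below every TSA library, while Vehicle 2 and Vehicle 3 lay within the TSA range. The log2 fold change of 0.21 ± 0.17 did not pass (SE, 95% interval −0.15 to 0.57, edgeR adjusted p = 0.363).

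Rb1, the pocket protein gene on which the kinases act, had 116, 124, 137 and 119 CPM in TSA 1 to 4, against 121, 159, 111 and 100 CPM in Vehicle 1 to 4. Vehicle 2 and Vehicle 4 bracketed all other libraries, and the means were 124 ± 9.25 CPM in TSA and 123 ± 25.5 CPM in Vehicle (SD, n = 4 each), with a log2 fold change of 0.01 ± 0.12 (SE, 95% interval −0.25 to 0.28, edgeR adjusted p = 0.954). Lpar6 lies within the span of Rb1. Exons were not compared, and how reads there were assigned is not known.

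Of the called genes only Cdk6 also passed with Xist status as a covariate. In that edgeR fit the log2 fold change was 0.56 for Ccnd3 (adjusted p = 0.0848), −0.17 for Cdkn1b (adjusted p = 0.497) and −0.40 for Cdkn2d (adjusted p = 0.156), beside the value of Cdk4 given above. DESeq2, by contrast, called Ccnd1 (log2 fold change 0.36, adjusted p = 0.049) and Ccnd2 (−0.39, adjusted p = 0.0337) as well. Without a filter on low counts edgeR passed Ccnd1 (adjusted p = 0.0123) and Ccnd2 (adjusted p = 0.00841) but not Ccnd3 (adjusted p = 0.0533) or Cdkn1b (adjusted p = 0.108).

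The direction of the called genes went with the length of genome they span. The 3 fallen genes span 2963 (Cdkn2d), 3754 (Cdk4) and 5125 (Cdkn1b) bases, and the 2 risen ones 94639 (Ccnd3) and 190005 (Cdk6) bases. Over all tested genes with an annotated span, of those under 6 kb 4.91% rose and 25.8% fell (2157 genes, median log2 fold change −0.20), and of those over 90 kb 31.7% rose and 7.36% fell (2432 genes, median 0.17). The slope of a library's log2 CPM over log10 of span, relative to the mean over libraries, was 0.083, 0.116, 0.155 and 0.028 in TSA 1 to 4, against −0.158, 0.047, −0.071 and −0.199 in Vehicle 1 to 4. With that trend removed, limma still called Cdk6 (log2 fold change 0.93, adjusted p = 6.06e-05), but Ccnd3 (0.30, adjusted p = 0.0884), Cdkn1b (−0.10, adjusted p = 0.441) and Cdkn2d (−0.24, adjusted p = 0.0798) no longer passed, and neither did Cdk4. Rb1 spans 133094 bases and did not pass in either fit, and Cdkn2c spans 5881 bases and did not pass in either.

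By the same edgeR test, the genes around the switch were read from 7 pathway lists, whose counts stand beside the 15.4% of all tested genes that rose and the 17.6% that fell. The median log2 fold change of all tested genes was −0.01. Over all tested genes, fits with 1 library left out called 1707 to 2702 risen and 2104 to 2891 fallen. Both were most numerous without Vehicle 2, at 2702 and 2891 of 15248, against 2314 and 2640 of 15000 in the main fit. Without a filter on low counts 2410 rose and 2581 fell of 28073. Among 17 genes of the Rb family, E2F and DP factors, 1 rose and 6 fell, with a median log2 fold change of −0.24. The risen numbered 3 without Vehicle 2 and 2 without Vehicle 1. Rbl1, which encodes the pocket protein p107, had 37.1 ± 4.58 CPM in TSA and 54.7 ± 5.29 CPM in Vehicle (SD, n = 4 each; log2 fold change −0.55 ± 0.11 SE, adjusted p = 0.00135). E2f2, an activator of replication genes, had 12.8 ± 3.004 CPM in TSA and 20.7 ± 1.95 CPM in Vehicle (−0.69 ± 0.16 SE, adjusted p = 0.00419). Lin52 and Lin54, subunits of the DREAM and MuvB complexes that act with pocket proteins, also fell (log2 fold changes −0.60 and −0.54, edgeR adjusted p = 0.00104 and 0.00559).

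Of 7 genes of cyclin E, CDK2 and the CDK-activating kinase, 4 fell and 0 rose, with a median of −0.28. The fallen count was 1 without TSA 2 and 2 without TSA 1, TSA 3, TSA 4 or Vehicle 4, and 1 without a filter on low counts. Ccne2, a cyclin E that acts after the D cyclins, had 11.7, 12.9, 13.97 and 15.01 CPM in TSA 1 to 4, against 25.8, 21.8, 20.6 and 31.8 CPM in Vehicle 1 to 4. That is a log2 fold change of −0.89 ± 0.15 (SE, edgeR adjusted p = 0.000457), and every TSA library was below every Vehicle library. Ccne1 fell by less (log2 fold change −0.41, edgeR adjusted p = 0.0379), as did Ccnh and Mnat1, the partners of Cdk7 in the activating kinase (−0.28 and −0.36, edgeR adjusted p = 0.0276 and 0.0247). Of 4 other CDK inhibitor genes 2 were tested: Cdkn3, a phosphatase that acts on CDKs, fell (−0.80 ± 0.21 SE, edgeR adjusted p = 0.0106), and Cdkn1c (p57) did not pass (−0.26 ± 0.14 SE, edgeR adjusted p = 0.191). Without TSA 3 the fallen of this list numbered 2.

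E2F target genes of G1/S are the readout of the switch, and of 20 tested 7 fell and 0 rose (median −0.15). Without Vehicle 2, however, the risen numbered 4, and without a filter on low counts they also numbered 4. Pcna, the sliding clamp of DNA replication, had 57.5, 60.3, 59.2 and 62.6 CPM in TSA 1 to 4, against 86.4, 95.7, 96.9 and 109 CPM in Vehicle 1 to 4. The gap between the groups was wider than the spread in either (log2 fold change −0.69 ± 0.09 SE, edgeR adjusted p = 8.78e-05). Tyms and Rrm2, which supply nucleotides for replication, fell with log2 fold changes of −0.70 and −0.64 (edgeR adjusted p = 0.000253 and 0.00142), and Gins2, a part of the replicative helicase, with −0.66 (edgeR adjusted p = 0.0063).

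Of 15 genes of the degradation of p27 and cyclins, 2 rose and 4 fell (median −0.07). Without Vehicle 2 the risen numbered 5, and without TSA 1 or TSA 4 they numbered 1. Those that fell include Skp1a and Rbx1, subunits shared by SCF ubiquitin ligases (log2 fold changes −0.74 and −0.63, edgeR adjusted p = 0.000123 for both), and Cks1b, the SCF cofactor that recognises p27 (−0.68, edgeR adjusted p = 0.000355). Trim32, a ubiquitin ligase known in mouse cortex for promoting neuronal fate, rose (0.55, edgeR adjusted p = 0.00257). Among 20 genes of p53 and its targets, without Cdkn1a, 3 rose and 4 fell (median 0.03). Trp53 itself and Zmat3, an RNA-binding p53 target, rose (log2 fold changes 0.49 and 0.48, edgeR adjusted p = 0.00404 and 0.00247), while Mdm2, the ligase that degrades p53, and Eda2r, a receptor, fell (−0.45 and −0.79, edgeR adjusted p = 0.00144 and 0.00225).

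Of 19 transcription factors known to act on D cyclin or inhibitor genes, 6 rose and 1 fell (median 0.23). Without Vehicle 2 the risen numbered 11, in a fit where 2702 of 15248 tested genes rose in place of 2314 of 15000. The fallen numbered 3 without Vehicle 1 and 2 without TSA 3 or Vehicle 4. Tcf7l2, a Wnt effector, had 11.4, 12.8, 26.1 and 10.4 CPM in TSA 1 to 4, against 6.60, 6.25, 5.23 and 4.83 CPM in Vehicle 1 to 4, with TSA 3 far above the other TSA libraries (log2 fold change 1.42 ± 0.27 SE, edgeR adjusted p = 0.00131). Smad3, an effector of TGF-beta signals (0.67, edgeR adjusted p = 0.000854), and Mycn, which acts through E-boxes (0.47, edgeR adjusted p = 0.00452), rose as well. With Xist status as a covariate 11 of the 14 list counts moved by over 1.5 times, in a fit that called 10.5% of all tested genes in place of 33.0%. The fallen E2F targets numbered 1 in place of 7, and the fallen Rb family, E2F and DP genes 0 in place of 6. The fallen cyclin E, CDK2 and CAK genes numbered 0 in place of 4, and the risen factors 2 in place of 6. Over all tested genes the fallen numbered 818 in place of 2640, and the risen 757 in place of 2314. The cause of these losses was not tested.

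**Figure D3:**
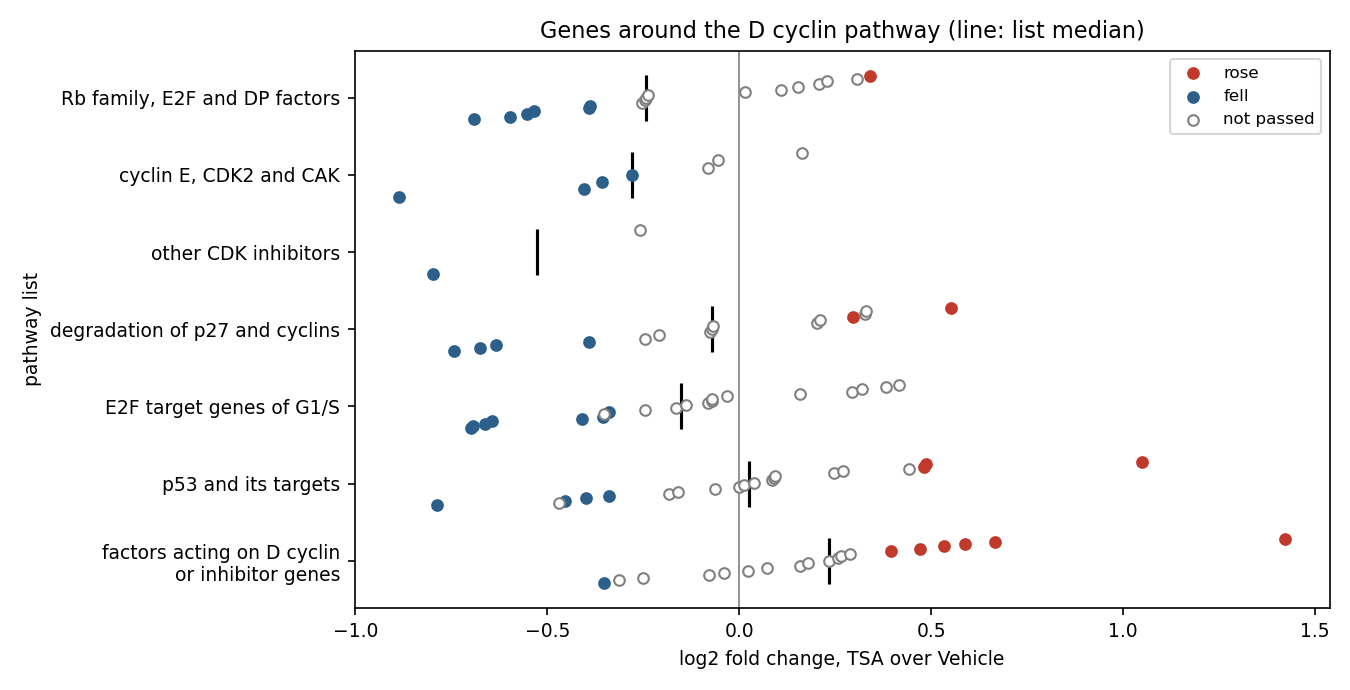
Log2 fold change, TSA over Vehicle (horizontal axis), of every tested gene in the 7 pathway lists, 1 row per list and 1 point per gene. Filled points rose or fell by the edgeR test, open points did not pass, and the vertical line is the list's median. Most called points of the E2F, cyclin E and E2F target lists lie left of 0, and most called points of the factor list right of it.

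For the D cyclins and Cdkn1a, the protein-coding genes whose log2 CPM followed them most closely over the 8 libraries were listed by Pearson's r. They were Top1, Phf8 and Fam98b for Ccnd1 (r = 0.992, 0.990 and 0.989), Dck, Topbp1 and Ppp2r5c for Ccnd2 (0.983, 0.982 and 0.981), Ccm2, Smtn and Iglon5 for Ccnd3 (0.991, 0.969 and 0.967), and Tent2, Nr2f2 and Gpr158 for Cdkn1a (0.970, 0.925 and 0.924). Picked as the highest among all tested protein-coding genes over only 8 points, these values are large by selection.

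H3K9ac was read from the 8 peak lists the authors deposited, each called on its own library with MACS2 against a common input, so libraries were compared by where peaks lie and how many bases they cover. TSA lists held 46714, 53285, 32248 and 61217 peaks in TSA 1 to 4, against 41987, 41331, 43645 and 22668 in Vehicle 1 to 4. Vehicle 4 had the fewest peaks from the most tags (24075842, against 11824246 to 19920755 in the other 7). For Ccnd1, Ccnd2 and Rb1 both ends of the annotated span were used in place of a start, giving 16 sites in all for the 10 genes. A peak lay within 1000 bases of a site in all 8 lists for 8 of the 10 genes. Over 14032 tested genes 67.5% had such a peak at a start, near enough to the share in the set that the count says little about these genes. The exceptions were Cdk6, with a peak in every list but Vehicle 4, and Cdkn1a, with none in TSA 3 or Vehicle 4.

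The peaks at Cdk4 were among the strongest of each list, as were those at Cdkn1b in every list but TSA 3. By the authors' fold enrichment over local background, the strongest peak at the Cdk4 start reached the 98.8th to 99.7th percentile of its list in the TSA lists and the 99.1st to 99.7th in the Vehicle lists. That at the Cdkn1b start, 2286 to 2420 bases wide in TSA and 1843 to 2440 bases wide in Vehicle, reached the 84.2nd to 99.7th percentile in TSA and the 98.3rd to 99.3rd in Vehicle. Peaks at Cdk6 were weaker, at the 68.5th to 87.8th percentile in TSA and the 50.8th to 67.3rd in the 3 Vehicle lists with a peak. At start 2 of Cdkn1a the ranges were 59.9 to 84.1 in 3 TSA lists and 40.5 to 49.8 in 3 Vehicle lists. A percentile can move with how many peaks a list holds, so it ranks peaks within a list and was not tested between groups. Marchf9 and Tspan31 lie within 5000 bases of the Cdk4 start, and bases under peaks there could not be assigned between the 3 genes. The same holds for Gm36470 at Cdk6, 9330179D12Rik at the higher-coordinate end of Ccnd2 and LTO1 at the lower-coordinate end of Ccnd1. It also holds for Taf8 at start 1 of Ccnd3, and for Kri1 and Ap1m2 at Cdkn2d.

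Bases under peaks within 5000 bases of each site gave no difference by the two-sided exact permutation test, whose smallest p with 4 against 4 is 0.0286. None of the 16 sites passed 0.05, but 2 of them (the lower-coordinate ends of Ccnd2 and Rb1) had no peak in any list and could not pass, and the 2 starts of Cdkn2c share their values. The share that passed was 1.75% among 20129 sites of all tested genes, where all TSA lists lay higher at 1.60% and lower at 0.149%. At Cdk6 the count was 1964, 997, 1398 and 1828 bases in TSA 1 to 4, against 2055, 1373, 1552 and 0 bases in Vehicle 1 to 4. The groups overlapped (difference of means 302 bases, exact p = 0.657), and without Vehicle 4 the difference was −113 bases. At Cdk4 the count was 3160, 3163, 2929 and 4746 bases in TSA 1 to 4, against 3611, 3030, 3317 and 2335 bases in Vehicle 1 to 4, and only TSA 4 lay outside the Vehicle range (exact p = 0.543). Cdkn1b had 3731, 3177, 2832 and 4175 bases in TSA 1 to 4, against 4172, 3391, 3840 and 2797 bases in Vehicle 1 to 4, with full overlap (exact p = 0.857).

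**Figure D4:**
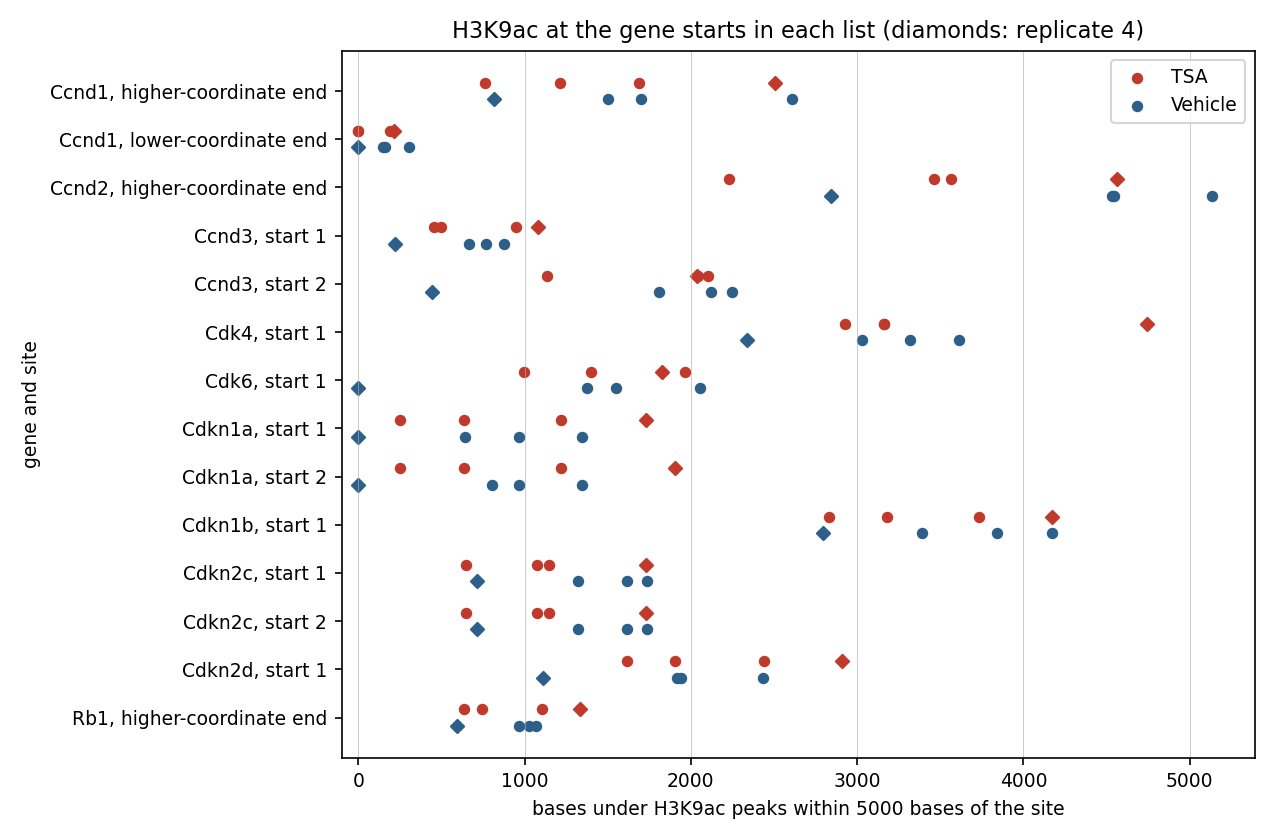
Bases under H3K9ac peaks within 5000 bases (horizontal axis) of each site that had any, with TSA lists drawn above Vehicle lists and diamonds for replicate 4 of each group. TSA 4 is often the highest TSA list and Vehicle 4 the lowest Vehicle list, and at every site the groups overlap.

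The number of bases called follows how much was called in a whole list, which was 12498718 to 26296209 bases in TSA and 8157956 to 19280642 bases in Vehicle. Per megabase under all peaks of the list, Ccnd2 at its higher-coordinate end averaged 180 bases in TSA and 288 bases in Vehicle, and Cdkn2c, whose 2 starts see the same peaks, averaged 58.4 bases in TSA and 87.9 bases in Vehicle. In both every TSA list lay below every Vehicle list (exact p = 0.0286, the smallest the test can give, unadjusted over 16 sites). By that measure TSA lists lay lower at 4.26% of all sites and higher at 1.42%. Unscaled, Ccnd2 had 3460, 3564, 2230 and 4561 bases in TSA 1 to 4, against 4545, 4531, 5135 and 2841 bases in Vehicle 1 to 4 (exact p = 0.343), with Vehicle 4 inside the TSA range.

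At Cdkn1a no list had a peak within 1000 bases of start 1, whose promoter carries the p53 half-sites, and acetylation lay over and after start 2. Within 5000 bases of start 2 peaks covered 1217, 634, 252 and 1906 bases in TSA 1 to 4, against 968, 807, 1348 and 0 bases in Vehicle 1 to 4 (difference of means 222 bases, exact p = 0.657). A peak covered the base of start 2 itself in TSA 1 (from −90 to 105) and TSA 4 (from −81 to 478) and in none of the 4 Vehicle lists, where the nearest peaks began at 595, 614 and 305 bases after it or ended 175 bases before it. TSA 2 and TSA 3 also had no peak over it, their first ones beginning at 493 and 1057 bases. In the plot of peaks by distance this is 2 of 4 lists against 0 of 4, and it was chosen for description after the positions were seen, with no test. TSA 3, the library number with the most Cdkn1a RNA, has the fewest acetylated bases here among the TSA lists. That list also has the fewest called bases of the TSA lists in all (12498718), and RNA and chromatin of 1 number are not known to come from the same animal.

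**Figure D5:**
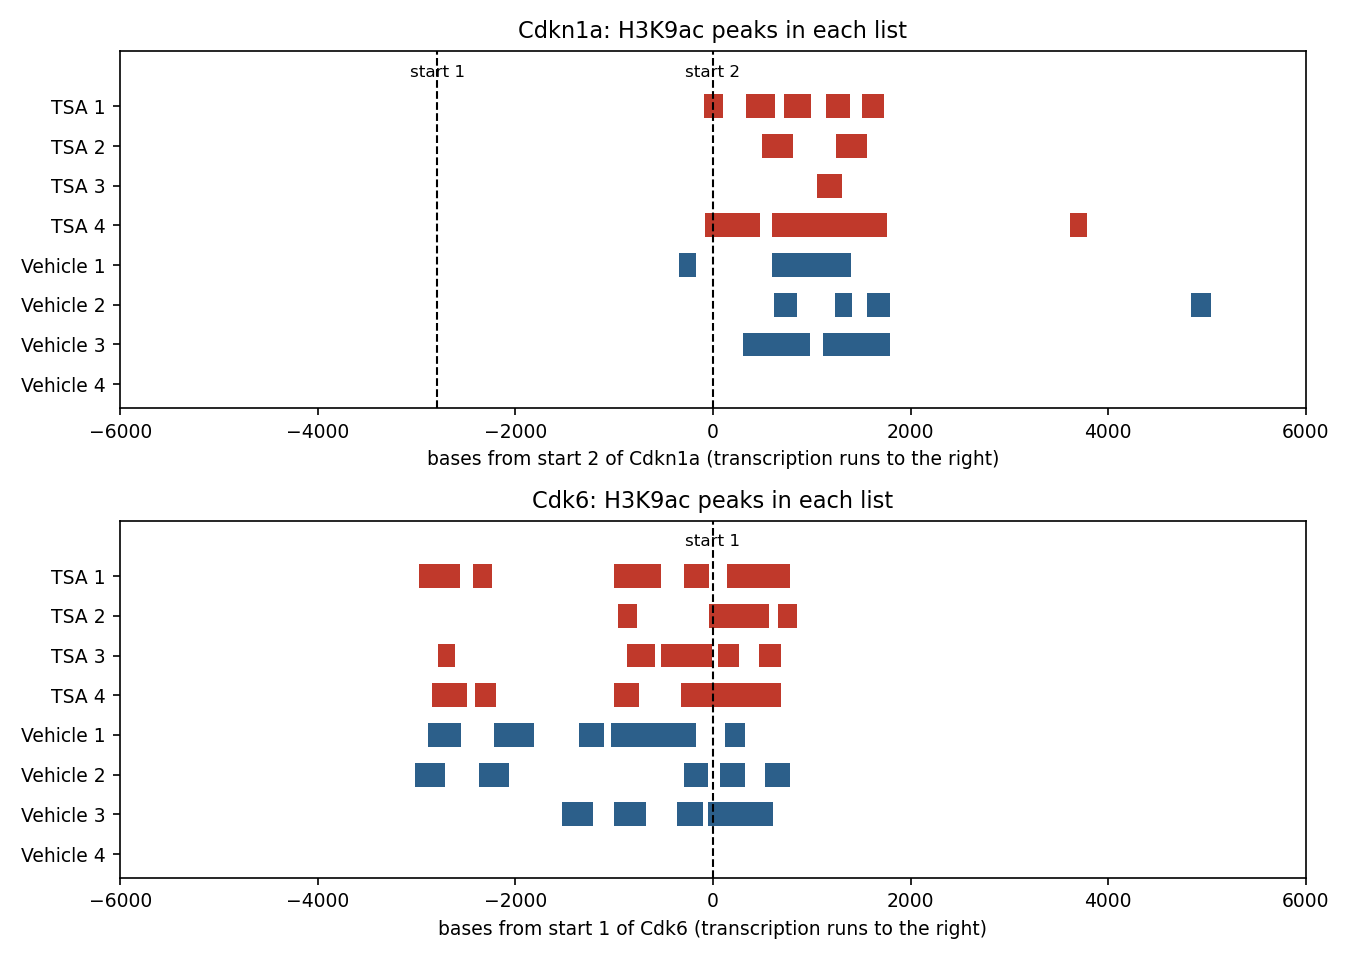
H3K9ac peaks (bars) around start 2 of Cdkn1a (top) and start 1 of Cdk6 (bottom) in each list, TSA lists above Vehicle lists, by distance in bases from the start (dashed lines). No bar lies near start 1 of Cdkn1a, and Vehicle 4 has no bar in either panel.

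Overlapping peaks from the 8 lists gave 104737 merged regions, of which 113 lie in the 10 genes or within 10000 bases of them. In 21 of the 113 all 8 lists had a peak. None was present in at least 3 more TSA than Vehicle lists, where 1.70% of all regions were, and 1 was present in at least 3 fewer TSA lists, where 0.253% were. That region lies within Ccnd2, on chr6:127147930-127148298, 369 bases wide and 4074 bases from the middle of the region to the higher-coordinate end of the gene, with peaks in 0 TSA lists and 3 Vehicle lists. Another region inside Ccnd2, 1044 bases wide, had peaks in 2 TSA and 4 Vehicle lists. Near Cdkn1a a region centred 9402 bases below the gene span had peaks in 2 TSA lists and 0 Vehicle lists. Differences of 2 lists are below the 3 used above, and their share over all regions was not counted. They also occurred at Ccnd3 and Cdkn2d with more TSA lists, and at Cdk6 with fewer.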

How the data were processed

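RNA was measured in 4 TSA and 4 Vehicle samples and H3K9ac in 4 TSA and 4 Vehicle samples, grouped by the sample titles. The 2 input samples were not analysed here. For RNA the authors deposited raw counts per Ensembl gene, not normalized, from libraries of an unstranded kit by the labels' protocols. SAMtools and the build mm10 come from the submitters' processing notes; for the aligner and counter, a name was not given in the sources used here. H3K9ac peaks were called per library with MACS2 2.1.0.20140616 at a q-value limit of 0.1 against a common input of 18937878 tags, per the file headers. The deposited −log10 q-value, pileup signal and fold enrichment ratio were used to rank or filter peaks inside a list and not compared between lists.

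The count test was edgeR 4.0.16 under R 4.3.3 (filterByExpr, TMM, robust quasi-likelihood, no covariate), and limma 3.58.1 and DESeq2 1.42.0 served as alternatives. The standard error is the fold change divided by the square root of F, and intervals use its degrees of freedom. The code was tested on simulated data. Levels were not compared between genes, since transcript lengths were not used here. Symbols matched for 47224 of 47729 Ensembl identifiers. Promoter sequences were found for 7 of the 10 genes and credited to RefSeq GRCm38.p6. No pair of libraries agreed within sampling noise (chi-square per degree of freedom 2.98 to 32.8). The members and all lists were chosen with earlier results of these data known. Beside the 10 genes, the text names up to 4 genes with the smallest p per pathway list and the 3 most correlated genes of Ccnd1, Ccnd2, Ccnd3 and Cdkn1a. 1 gene that this rule takes is not reported here.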

Additional observations from a re-analysis of the deposited data

Results flagged for a closer look

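Within-group values of the 10 genes were searched for a single library lying far from the other 3 of its group (by Dixon's ratio of gap to range), in 52 groups of 4, and 2 were found. At start 2 of Ccnd3, TSA 3 had 1137 bases under H3K9ac peaks, below the 2035 to 2106 bases of the other TSA lists. At the Cdk4 start, TSA 4 had 4746 bases, above the 2929 to 3163 bases of the other TSA lists. TSA 3 has the fewest called bases of the TSA lists in all and TSA 4 the most. About 1 in 20 such groups is expected to be picked out by chance.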

How the results depend on the processing

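Cdk6 was called, with TSA higher, under all 19 alternatives run. The other calls were less steady. Against 2 risen and 3 fallen genes, Xist status as a covariate gave 1 risen and 0 fallen, the libraries with Xist counts alone (an alternative chosen after seeing the data) gave 1 and 0, leaving out the Vehicle libraries richest in mitochondrial counts gave 1 and 4, and removal of the trend over genomic span gave 2 and 0. Those fits called 10.5%, 2.79%, 30.2% and 33.8% of all tested genes, against 33.0%. Leaving out 1 replicate gave 1 to 2 risen and 2 to 4 fallen genes. Sequencing lanes were 1, 1, 2 and 3 for TSA 1 to 4, and 1, 2, 3 and 3 for Vehicle 1 to 4. With lane as a covariate 3 genes rose and 2 fell, in a fit that called 32.4% of all tested genes. There Ccnd1 passed (edgeR adjusted p = 0.0231) and Cdkn1b did not (edgeR adjusted p = 0.0511). The cause of these losses was not tested. Fits with libraries left out also had fewer samples. The number of the 14 pathway list counts that moved by over 1.5 times was 11 with Xist status as a covariate and 11 on the libraries with Xist counts, and 0 to 4 under the other settings.

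Replicate numbers are shared between the groups. Same-numbered libraries correlated at 0.097, 0.085, 0.070 and 0.111 in their deviations from the group means. TSA 1, TSA 2 and TSA 4 each correlated best with the Vehicle library of their own number, and TSA 3 with Vehicle 2 (0.155). These weak correlations do not settle whether the numbers mark pairs. As the labels do not tie samples to animals, the main fit did not take them as pairs. With a replicate block 3 genes rose and 4 fell (Ccnd1 and Ccnd2 passed as well), and all tested genes called numbered 2598 risen and 2744 fallen. For H3K9ac the paired sign-flip test cannot go below 0.125, and its exact p lay at 0.5 or above at every site.

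Genes that passed in no fit changed sign. Cdkn1a was at −0.0721 with Xist status as a covariate, at −0.0709 on the libraries with Xist counts, and at −0.0223 to 0.229 with 1 replicate left out. Cdkn2c was at −0.0569 without the Vehicle libraries rich in mitochondrial counts. Rb1 was at −0.003 with sequencing lane, −0.0507 with Xist status, −0.126 without the mitochondria-rich and −0.0346 without the striatal-marker-rich Vehicle library, −0.05 on the libraries with Xist counts, −0.0854 with the span trend removed, and −0.0746 to 0.162 with 1 replicate left out.

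At a −log10 q of at least 5, 4 genes in place of 8 had a peak in all lists. Only 36.9 to 54.1% of the peaks in a list reach that limit. The share of all tested genes at this limit was not counted, so the drop cannot be read as particular to these genes. Scaled to an equal total under all peaks, 3 sites in place of 0 passed (Ccnd2 and both starts of Cdkn2c), and differences of means in bases turned to −5.6 (Ccnd3 start 1), −82.5 (Ccnd3 start 2), −457.6 (Cdk4), −58.1 (Cdkn2d) and −206.3 (Rb1). With peaks of −log10 q of at least 5 they turned to 208.5 (Ccnd1), 454.2 (Cdkn1b) and −49.2 (Rb1), and within 2500 bases to −13.2 (Cdkn1a start 1), 21.5 (Cdkn1b) and −193.8 (Cdkn2d). Leaving out 1 list gave −437.2 to 202.5 bases for Ccnd1, −23.8 to 210.4 for Ccnd3 start 1, −228.2 to 406.4 for Ccnd3 start 2, −113.2 to 571.8 for Cdk6, −38.5 to 453.8 and −79.8 to 471.6 for starts 1 and 2 of Cdkn1a, −322.2 to 144.3 for Cdkn1b and −85.3 to 146.3 for Rb1. None of these reversed values passed the test. Ccnd3, Cdkn1a and Cdkn2c rest on the fewest reads of the set, and H3K9ac depth is limited by Vehicle 4.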
